A study of Homo sapiens with 12 samples.

Results

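Fatty acid oxidation and peroxisome genes were followed in 12 RNA libraries of 4 acute myeloid leukaemia cell lines. The set holds 37 genes, chosen by name for the role of their products and not by a rule on measured values. Earlier results of these data were known when they were chosen. It covers the carnitine shuttle and other carnitine acyltransferases (6 genes), acyl-CoA dehydrogenases (5), hydratases, hydroxyacyl-CoA dehydrogenases and thiolases of mitochondria (6), enzymes for unsaturated fatty acids (4), the electron transfer flavoprotein and its oxidoreductase (3), an acyl-CoA thioesterase (1), peroxisomal enzymes (6), ABCD transporters (2) and peroxisome biogenesis factors (4). All 37 were found among 57865 genes and all 37 passed the filter on low counts, which left 15424 genes.

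Established human leukaemia lines, namely OCI-AML3, KG-1a, MOLM-14 and MV4-11, were each cultured for 12 h with DMSO (the vehicle), with 10 µM pioglitazone or with 10 µM darglitazone. There was 1 library for each line and treatment, so the line is the replicate in a comparison of treatments (n = 4), and the 3 libraries of a line, which had different treatments, are its replicates in a comparison of lines. No label says that the libraries of a line came from separate cultures, so the p-values measure only the spread between these libraries. Ribosomal RNA was removed from total RNA and the libraries kept the strand. Both drugs are thiazolidinediones, agonists of the nuclear receptor PPARγ.

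Fatty acids enter mitochondria as carnitine esters, made by CPT1 at the outer membrane, carried inward by the translocase SLC25A20 and turned back into acyl-CoA by CPT2. Each round of beta-oxidation then runs through a dehydrogenase, a hydratase, a hydroxyacyl-CoA dehydrogenase and a thiolase, and the dehydrogenases hand their electrons to ETF and ETFDH. Peroxisomes shorten very long and branched chains with a parallel set of enzymes, in which an oxidase makes the hydrogen peroxide that catalase breaks down, and PEX proteins build the organelle. PPARs are known to switch on many of these genes in liver and muscle, and leukaemia cells are known to use fatty acid oxidation as a fuel.

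The libraries held 1095383 to 64226672 estimated counts, and the shallowest was the pioglitazone library of OCI-AML3, in which 1 count is worth 0.877 counts-per-million (CPM) and 3 counts 2.63 CPM. In 2 libraries a ribosomal RNA-derived entry took a larger share than elsewhere (at most 0.542%): 23.5% in KG-1a with pioglitazone and 6.18% in OCI-AML3 with pioglitazone. Genes typical of another line had low levels in some libraries: 6 genes typical of MV4-11 stood at a median of 4.10% of their MV4-11 level in the darglitazone library of KG-1a, and 78 genes typical of KG-1a at 1.97% in the pioglitazone library of OCI-AML3. Myeloid markers were present, with 8 of 10 above 0 in all 12 libraries and a summed level of 1070 to 3073 CPM. Markers of other cells differed between lines, with summed T-cell markers at a mean of 28.7 CPM and B-cell markers at 14.8 CPM in KG-1a and epithelial markers at 53.9 CPM in MOLM-14, while HBB, HBA1, ALAS2, MS4A1 and FABP4 were at 0 throughout. The 3 endothelial markers summed to 22.7 to 159 CPM, nearly all of it PECAM1, and erythroid, fibroblast, adipocyte and hepatocyte markers to at most 1.68 CPM. The part of these differences in the results below was not tested.

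Levels between genes were compared per length, as transcripts-per-million (TPM) computed over protein-coding genes, and all other levels are CPM after scaling of library sizes. ACADVL, the very-long-chain dehydrogenase, had the highest median, 380.4 TPM (128 to 612 over the 12 libraries). CAT, the catalase gene, came next at 230.1 TPM (61.3 to 449.9), before ETFA, the alpha subunit of the electron carrier, at 209 TPM and HADHA, the alpha subunit of the mitochondrial trifunctional protein, at 181 TPM. These ranges overlap over the 12 libraries, and the order of these 4 genes depended on the line. With these lengths ACADVL was the highest of the 4 in every library of MOLM-14, OCI-AML3 and MV4-11. In every KG-1a library CAT was the highest and ACADVL the lowest of the 4. At the other end stood EHHADH, the peroxisomal bifunctional enzyme (median 4.35 TPM, 0.653 to 17.7), and CROT, the peroxisomal carnitine octanoyltransferase (1.11 TPM, 0.177 to 4.26). ECI2, a peroxisomal and mitochondrial enoyl-CoA isomerase, ranged from 0 to 152 TPM, with a mean of 125 ± 24.3 TPM (SD, n = 3) in KG-1a and at most 2.99 TPM as the mean of another line. The ranks of single genes depend on which length is used: CPT1A, ACADVL, HADHA, ECHS1, ETFA and CAT were among the 7 highest with either length, whereas HSD17B4 moved from rank 5 to 15, SCP2 from 10 to 24 and HADH from 17 to 32 when the union of a gene's exons replaced the lengths of its transcripts.

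Paralogs within the set were unequal. CPT1A, the liver-type form of the rate-limiting carnitine palmitoyltransferase, was above CPT1B, the muscle-type form, in all 12 libraries, by 1.39 to 14.9 times per length. That ratio was lowest in OCI-AML3 (1.39 to 1.8) and did not overlap with its values in MOLM-14 (2.7 to 3.62), MV4-11 (7.03 to 14.9) or KG-1a (3.92 to 6.99). CPT1B shares exons and strand with the readthrough gene CHKB-CPT1B, so the split of reads between these is uncertain.

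**Figure D1:**
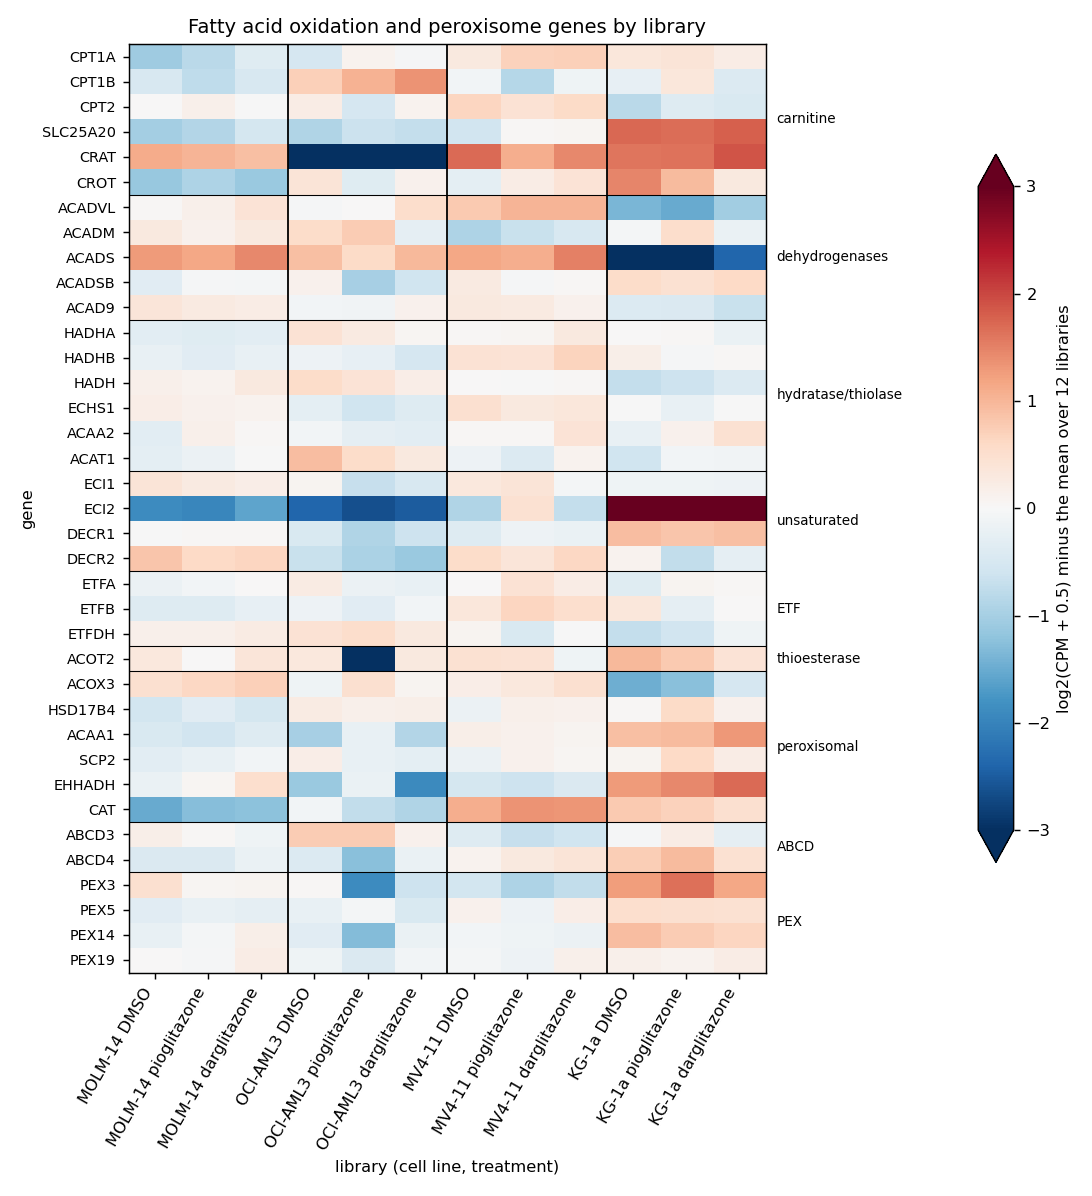
Level of each of the 37 genes (rows, grouped by role) in each of the 12 libraries (columns, 3 per cell line). Colour is log2(CPM + 0.5) minus the gene's mean over the 12 libraries, and colours stop at 3 in either direction; the blocks that differ most from their rows are ECI2 in KG-1a, CRAT in OCI-AML3 and ACADS in KG-1a, while columns of the same line look alike.

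Most of these genes differed between the cell lines. In edgeR's quasi-likelihood F test with Benjamini-Hochberg adjustment over all genes, 32 of the 37 differed between the 4 lines (86.5%), against a background of 72.6% of all genes tested, as most genes of any kind differed between these lines. The 5 that did not pass were ACAA2, the last thiolase of mitochondrial beta-oxidation, ETFA, ACOT2, SCP2 and PEX19, of which SCP2 and PEX19 passed in a contrast of 1 line. Each line was also set against the mean of the 3 other lines, and the line contrasts below are log2 fold changes from that test, each with its standard error (SE) and edgeR's adjusted p. In MOLM-14 6 genes were higher and 13 lower (background 23.5% higher and 17.7% lower), in OCI-AML3 7 higher and 17 lower (background 23% and 19.4%), in MV4-11 12 higher and 4 lower (background 23.3% and 17.5%) and in KG-1a 16 higher and 7 lower (background 26.9% and 27.2%). Some of these counts rest on the libraries of 1 treatment. Without the pioglitazone libraries, which include the shallow OCI-AML3 library, 8 genes were higher and 10 lower in OCI-AML3, and the counts were the same without the darglitazone libraries; without the DMSO libraries 4 were higher and 13 lower. In MOLM-14, 4 were higher and 6 lower without the DMSO libraries, and 5 higher and 8 lower without the darglitazone libraries. In MV4-11, 2 were lower without the DMSO libraries. Of the 82 calls in the set, 33 were lost without the libraries of at least 1 treatment, and those among them that are named below carry the adjusted p they then had. The set's median log2 fold change was -0.10 for MOLM-14 (all genes tested 0.04), -0.27 for OCI-AML3 (0.02), 0.21 for MV4-11 (0.02) and 0.15 for KG-1a (-0.03). A level far from the rest in 1 line also moves the mean against which the other lines are set: OCI-AML3 lowers it for CRAT, KG-1a lowers it for ACADS, and KG-1a raises it for ECI2. Among others, KG-1a also raises it, by less, for EHHADH, PEX3, PEX5 and PEX14.

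**Figure D2:**
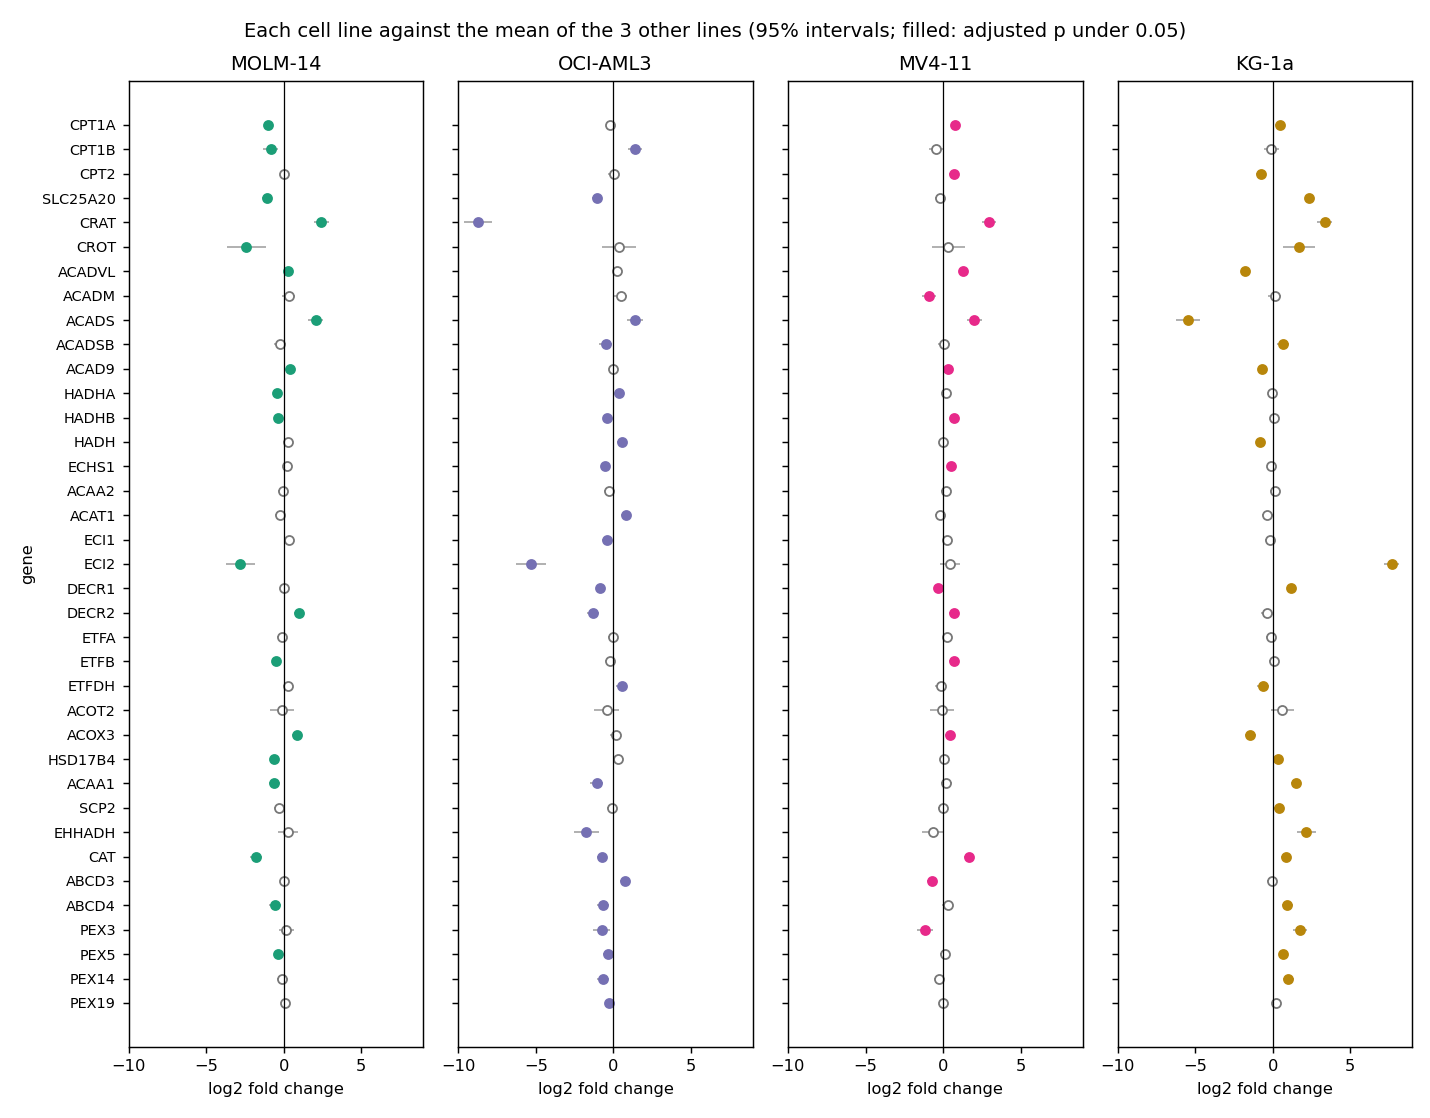
Log2 fold change of each of the 37 genes in a cell line against the mean of the 3 other lines (horizontal axis; 1 panel per line), with 95% intervals as grey lines. Filled points passed an adjusted p of 0.05 and open points did not; ECI2 lies at 7.65 in KG-1a and CRAT at -8.72 in OCI-AML3.

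Among these genes, 3 were near 0 in some lines and well read in others. ECI2 (GRCh38 chr6:4115689-4135597, minus strand), which moves double bonds so that unsaturated chains can be oxidised, was read at 74.5, 94.9 and 72.4 CPM in KG-1a (DMSO, pioglitazone, darglitazone, the order used throughout). In MV4-11 it stood at 1.14, 3.75 and 1.37 CPM, in MOLM-14 at 0.331, 0.30 and 0.534 and in OCI-AML3 at 0.0897, 0 and 0.0475, so that KG-1a did not overlap with any other line. Pooled over a line's 3 libraries, 1946 counts were found in KG-1a against 85 in MV4-11, 22 in MOLM-14 and 7 in OCI-AML3. The pooled level in KG-1a was 48.8 times that in MV4-11 (exact 95% interval 39.2 to 61.3, counting error only) and 236 times that in MOLM-14 (156 to 378). The contrast of KG-1a with the other lines was 7.65 (SE 0.23, adjusted p = 3.42e-12). This contrast was chosen after its values were seen, because the mean of ECI2 over the libraries is below the minimum set for the line contrasts named by rule, and ECI2 passed the filter on low counts through KG-1a. ECI1, the mitochondrial isomerase that acts on the same double bonds, ranged from 20.2 to 43.2 CPM over all 12 libraries.

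CRAT (chr9:129094810-129111189, minus strand), the carnitine acetyltransferase that buffers acetyl-CoA, was near 0 in OCI-AML3. It stood at 0.0897, 0.877 and 0 CPM there, of which the pioglitazone value is 1 count and lies below the 2.63 CPM of 3 counts in that library. The other lines had 28, 26.1 and 23.9 CPM (MOLM-14), 42, 27.6 and 35.3 (MV4-11) and 39.4, 40.1 and 48.2 (KG-1a). These 3 lines overlapped in part with each other and not with OCI-AML3. With 7 pooled counts in OCI-AML3, MOLM-14 was 340 times higher (exact 95% interval 165 to 847), and the contrast of OCI-AML3 with the other lines was -8.72 (SE 0.42, adjusted p = 2.15e-09).

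ACADS (chr12:120725735-120740008, plus strand), the short-chain acyl-CoA dehydrogenase, was the gene near 0 in KG-1a. Its levels were 18.7, 14.9 and 19.7 CPM in OCI-AML3, 0.339, 0.101 and 1.47 in KG-1a, 24.5, 22.7 and 27.7 in MOLM-14 and 22.4, 21.3 and 29 in MV4-11. The KG-1a libraries held 11 counts in all, 7 of them in the darglitazone library. In that library genes typical of MV4-11 were read at 4.10%, and the same share of the mean ACADS level of MV4-11 (24.2 CPM) would be 0.995 CPM, beside the 1.47 CPM observed. Pooled levels in OCI-AML3 were 40.4 times those in KG-1a (exact 95% interval 22.5 to 81.0), and the contrast of KG-1a with the other lines was -5.46 (SE 0.37, adjusted p = 1.39e-08).

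**Figure D3:**
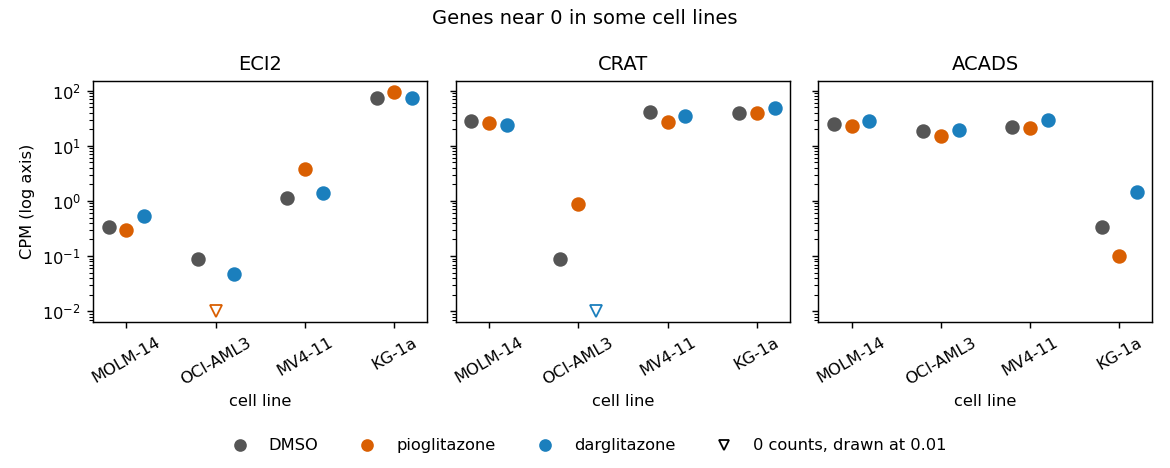
CPM on a log axis of ECI2, CRAT and ACADS by cell line, 1 point per library, coloured by treatment; open triangles are libraries with 0 counts, drawn at 0.01. ECI2 is high in KG-1a alone (72.4 to 94.9 CPM), CRAT is near 0 in OCI-AML3 alone and ACADS is near 0 in KG-1a alone, under each of the 3 treatments.

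The promoter windows of ECI2 and ACADS are shown because these genes are on in some lines and near 0 in others. They are taken from RefSeq on GRCh38.p14 and run from 250 bases before to 50 bases after an annotated start, 5′ to 3′ on the gene's strand, with CG dinucleotides in capitals. The ECI2 window is chr6:4135526-4135825 on the minus strand (1 of 2 entries for the gene) and the ACADS window chr12:120725576-120725875 on the plus strand.
ECI2: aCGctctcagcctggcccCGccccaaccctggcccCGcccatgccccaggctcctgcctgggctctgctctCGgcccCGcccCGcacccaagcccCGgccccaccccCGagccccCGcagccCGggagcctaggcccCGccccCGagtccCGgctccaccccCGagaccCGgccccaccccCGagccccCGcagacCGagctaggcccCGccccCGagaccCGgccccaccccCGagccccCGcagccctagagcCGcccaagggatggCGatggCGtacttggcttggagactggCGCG
ACADS: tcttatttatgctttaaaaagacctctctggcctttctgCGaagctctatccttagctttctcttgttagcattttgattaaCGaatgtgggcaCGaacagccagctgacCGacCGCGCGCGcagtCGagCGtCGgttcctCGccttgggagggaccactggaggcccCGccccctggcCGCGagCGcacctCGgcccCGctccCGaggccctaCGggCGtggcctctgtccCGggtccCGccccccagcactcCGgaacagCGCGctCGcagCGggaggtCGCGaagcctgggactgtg
The ECI2 window has 28 CG dinucleotides and 79% G + C, and the ACADS window 30 and 64%. The median over the 40 windows found for 29 of the 37 genes was 22.5 CG dinucleotides and 66.3% G + C, beside 21 and 62.3% over 21560 windows of protein-coding genes. Both windows hold more CG dinucleotides than either median. No window of the set held the PPAR/RXR element AGGTCANAGGTCA, the ERR element TCAAGGTCA or the NRF1 element GCGCATGCGC on either strand, the shares over all windows being 0.0232%, 0.241% and 1.47%. At shares this low, 0 hits in 40 windows neither set these genes apart from others nor show that such sites are absent. CPT1B, CRAT, DECR1, DECR2, ETFDH, ACAA1, EHHADH and PEX14 had no entry.

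Within the carnitine shuttle, KG-1a stood apart by SLC25A20, the carnitine-acylcarnitine translocase. Its level there was 70.2, 68.4 and 74.1 CPM, against 10.1, 11.3 and 14.3 in MOLM-14, 11, 13.2 and 12.5 in OCI-AML3 and 13.9, 21.3 and 21.8 in MV4-11. The lowest KG-1a library was above the highest library of the other lines, and the contrast was 2.36 (SE 0.13, adjusted p = 1.54e-09). CPT1A was lowest in MOLM-14: 133, 203 and 183 CPM in OCI-AML3, 239, 248 and 220.3 in KG-1a, 89.6, 108 and 147 in MOLM-14 and 232, 307 and 312 in MV4-11. The MOLM-14 contrast was -0.99 (SE 0.13, adjusted p = 3.48e-05) and that of MV4-11 0.76 (SE 0.12, adjusted p = 1.53e-04). CPT2, the inner-membrane transferase, had 39, 23.7 and 36 CPM in OCI-AML3, 19, 25.6 and 24.5 in KG-1a, 33.9, 37.5 and 33.4 in MOLM-14 and 53, 45.4 and 49.8 in MV4-11. CPT2 was higher in MV4-11, at 0.71 (SE 0.14, adjusted p = 0.00115), and lower in KG-1a, at -0.76 (SE 0.16, adjusted p = 9.87e-04). The MV4-11 libraries lay above all others, while those of OCI-AML3 overlapped with KG-1a and MOLM-14. The KG-1a call was lost when all libraries were thinned to the depth of the shallowest (adjusted p = 0.0794).

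CPT1B had its highest levels in OCI-AML3, with 28.5, 36 and 44.4 CPM in OCI-AML3, 14.5, 22.1 and 12.8 in KG-1a, 12.1, 9.86 and 12.2 in MOLM-14 and 16.2, 9.31 and 15.7 in MV4-11. All 3 OCI-AML3 libraries were above the 9 others, at 1.38 (SE 0.21, adjusted p = 1.08e-04). CROT was low in every library, with 1.79, 0.877 and 1.43 CPM in OCI-AML3, 4.41, 2.92 and 1.68 in KG-1a, 0.298, 0.429 and 0.321 in MOLM-14 and 0.933, 1.55 and 1.83 in MV4-11. Its contrasts were -2.41 (SE 0.59, adjusted p = 0.00436) in MOLM-14 and 1.69 (SE 0.48, adjusted p = 0.0076) in KG-1a, resting on at most 10 and 39 counts in a library of these lines. Without the DMSO libraries both calls were lost (adjusted p = 0.0683 and 0.157).

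The acyl-CoA dehydrogenases, which start each round and differ in chain length, had 3 of 5 members lower and 1 higher in KG-1a (background 27.2% lower and 26.9% higher). ACADVL had 229.5, 238 and 338 CPM in OCI-AML3, 90.3, 82.6 and 114 in KG-1a, 244, 263 and 315 in MOLM-14 and 405, 479.9 and 481 in MV4-11. KG-1a was below and MV4-11 above every other line without overlap, at -1.76 (SE 0.11, adjusted p = 8.86e-09) and 1.26 (SE 0.10, adjusted p = 1.35e-07). The transcript with the largest share of ACADVL counts was ACADVL-203 in KG-1a (47.0%) and ACADVL-205 in the 3 other lines (35.0% to 48.0%). Across the set, 26 of 37 genes had the same leading transcript in all 4 lines. ACADM, the medium-chain dehydrogenase, was lowest in MV4-11: 49.1, 56.2 and 27.5 CPM in OCI-AML3, 32, 48.4 and 28.9 in KG-1a, 41, 36.1 and 40.5 in MOLM-14 and 17.2, 20.8 and 23.6 in MV4-11. Its MV4-11 contrast was -0.91 (SE 0.20, adjusted p = 0.00268), and without the DMSO libraries it was -0.75 with an adjusted p of 0.0549. ACADM overlaps RABGGTB on the same strand, which limits how firmly its reads can be assigned. ACADSB, for short branched chains, had 23.5, 10.5 and 14.1 CPM in OCI-AML3, 31.6, 29.3 and 32.5 in KG-1a, 16.8, 20.8 and 20.5 in MOLM-14 and 26, 20.8 and 22 in MV4-11 and was higher in KG-1a (0.67, SE 0.18, adjusted p = 0.00497; without the darglitazone libraries adjusted p = 0.0607). ACAD9, which also helps to assemble respiratory complex I, was lower there (-0.67, SE 0.12, adjusted p = 2.48e-04) at 31 to 37.1 CPM, below the 45.6 to 63.5 CPM of the other lines. Thinned to the shallowest library, that call was lost (adjusted p = 0.0648).

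HADHA and HADHB, which encode the 2 subunits of the trifunctional protein, lie head to head on chromosome 2 and their RefSeq promoter windows share 194 bases. They are printed because the neighbouring genes had different orders over the lines. Capitals mark the shared bases, read from opposite strands: HADHA is chr2:26244583-26244882 on the minus strand and HADHB chr2:26244689-26244988 on the plus strand.
HADHA: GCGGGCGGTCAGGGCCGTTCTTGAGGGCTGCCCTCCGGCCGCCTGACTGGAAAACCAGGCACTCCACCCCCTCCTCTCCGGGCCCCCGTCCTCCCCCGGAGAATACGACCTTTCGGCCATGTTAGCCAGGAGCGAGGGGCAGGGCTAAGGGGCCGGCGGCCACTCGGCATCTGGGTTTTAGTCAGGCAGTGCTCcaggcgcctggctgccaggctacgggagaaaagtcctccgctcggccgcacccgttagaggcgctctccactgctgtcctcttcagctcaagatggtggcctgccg
HADHB: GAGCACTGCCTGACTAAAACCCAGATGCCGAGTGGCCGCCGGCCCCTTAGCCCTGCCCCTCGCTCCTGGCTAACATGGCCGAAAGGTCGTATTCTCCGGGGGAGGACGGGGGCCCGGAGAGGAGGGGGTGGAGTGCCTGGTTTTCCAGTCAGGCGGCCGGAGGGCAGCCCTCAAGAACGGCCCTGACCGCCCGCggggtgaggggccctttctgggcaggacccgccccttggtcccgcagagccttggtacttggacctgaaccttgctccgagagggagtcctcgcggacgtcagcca
HADHA had 365, 326 and 281 CPM in OCI-AML3, 269, 274 and 234 in KG-1a, 215, 207 and 217 in MOLM-14 and 275, 279 and 329 in MV4-11. HADHB had 70.7, 65.8 and 54.6 CPM in OCI-AML3, 88.9, 76.3 and 80.6 in KG-1a, 67, 62 and 66.6 in MOLM-14 and 105, 104 and 124 in MV4-11. In OCI-AML3 the 2 genes differed from the other lines in opposite directions, HADHA at 0.35 (SE 0.11, adjusted p = 0.0156) and HADHB at -0.41 (SE 0.12, adjusted p = 0.0104). The HADHA call was lost without the DMSO libraries (adjusted p = 0.263) and the HADHB call without the darglitazone libraries (adjusted p = 0.176). In MV4-11 HADHB was higher, at 0.68 (SE 0.11, adjusted p = 1.42e-04), and HADHA had 0.17 (SE 0.11, adjusted p = 0.217). Per length, the ratio of HADHA to HADHB was 3.53 to 3.68 in OCI-AML3 and 1.62 to 1.9 in MV4-11, with 2.3 to 2.42 in MOLM-14 and 2.14 to 2.41 in KG-1a. The OCI-AML3 and MV4-11 ratios overlapped neither with each other nor with those of the 2 lines between them. The annotated genes overlap on opposite strands, and no source used here says whether the counting used the strand.

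Of the other mitochondrial enzymes of the round, all but ACAA2 had called line contrasts. ECHS1, the short-chain hydratase, had 89.2, 71.9 and 82.7 CPM in OCI-AML3, 107, 93.7 and 107 in KG-1a, 126, 118 and 117 in MOLM-14 and 152, 132 and 137 in MV4-11, and was higher in MV4-11 (0.48, SE 0.09, adjusted p = 7.79e-04) and lower in OCI-AML3 (-0.56, SE 0.10, adjusted p = 4.55e-04). HADH, the short-chain hydroxyacyl-CoA dehydrogenase, was lowest in KG-1a at 19.8 to 24.5 CPM, against 32.5 to 48 CPM elsewhere (-0.79, SE 0.14, adjusted p = 2.16e-04). ACAT1, the mitochondrial acetoacetyl-CoA thiolase, was highest in OCI-AML3, with 166, 128 and 108 CPM in OCI-AML3, 57.5, 83.6 and 81.4 in KG-1a, 71.2, 77.6 and 86.9 in MOLM-14 and 79.2, 66.2 and 94.1 in MV4-11 (0.81, SE 0.16, adjusted p = 8.43e-04). ACAA2 had 28.1, 24.6 and 24.1 CPM in OCI-AML3, 25.5, 32.5 and 41.5 in KG-1a, 23.8, 33.1 and 30.7 in MOLM-14 and 30.8, 30.8 and 39.8 in MV4-11. Its lines overlapped, except that all OCI-AML3 libraries lay below those of MV4-11.

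Of the enzymes for unsaturated chains other than ECI2, 3 of 3 were lower in OCI-AML3 (background 19.4%). These were DECR2, the peroxisomal dienoyl-CoA reductase, at -1.30 (SE 0.18, adjusted p = 4.27e-05), its mitochondrial counterpart DECR1 at -0.84 (SE 0.13, adjusted p = 9.06e-05), and ECI1 at -0.41 (SE 0.15, adjusted p = 0.0385). The call of ECI1 was lost without the pioglitazone libraries (adjusted p = 0.219) and without the darglitazone libraries (adjusted p = 0.208). ECI2 is left out of this count, since its levels were near 0 in 3 lines and the mean against which OCI-AML3 was set includes the high level of KG-1a. DECR2 had 11.9, 9.65 and 8.65 CPM in OCI-AML3, 20.8, 11.3 and 15.9 in KG-1a, 34.7, 29.5 and 30.5 in MOLM-14 and 28.5, 24.7 and 29.7 in MV4-11. Its OCI-AML3 libraries overlapped only with the pioglitazone library of KG-1a. DECR2 shares its strand and part of its span with NME4, so reads of the overlap may be split between these genes. DECR1 was highest in KG-1a, at 89, 83.9 and 86.9 CPM against at most 48 elsewhere (1.17, SE 0.11, adjusted p = 4.24e-07). The mean against which OCI-AML3 was set includes this high level, which enlarges the DECR1 contrast of OCI-AML3. Its OCI-AML3 libraries, at 33.6, 24.6 and 30 CPM, lay below those of every other line.

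Of the electron carriers, ETFA ranged from 78.4 to 136 CPM without a called line. ETFB, the beta subunit, was higher in MV4-11 (73.4, 90.4 and 82.5 CPM; 0.67, SE 0.13, adjusted p = 6.29e-04), and ETFDH, which passes the electrons to ubiquinone, was lower in KG-1a (12.8, 14 and 19.3 CPM; -0.64, SE 0.17, adjusted p = 0.00551). Each of these overlapped 1 library of another line, and the ETFDH call was lost without the DMSO libraries (adjusted p = 0.118). ACOT2, a mitochondrial thioesterase, had 0 counts in the pioglitazone library of OCI-AML3, where 3 counts would be 2.63 CPM, and 7.96 to 17.8 CPM in the 11 others. ACOT1 is a near-identical copy, at 13.2 CPM in that same library and at most 5.86 CPM elsewhere, so the split between ACOT2 and ACOT1 is uncertain.

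In the peroxisome, KG-1a differed from the other lines in 6 of 6 enzymes, 5 higher and 1 lower (background 26.9% higher and 27.2% lower). Without the pioglitazone libraries, as without the darglitazone libraries, it was 3 higher and 1 lower. EHHADH had 2.56, 5.26 and 1.24 CPM in OCI-AML3, 15.4, 17.4 and 20.9 in KG-1a, 5.23, 6.34 and 8.87 in MOLM-14 and 4.04, 3.75 and 4.36 in MV4-11. KG-1a lay above all other libraries, at 2.16 (SE 0.29, adjusted p = 1.60e-05), and OCI-AML3 was lower (-1.76, SE 0.38, adjusted p = 0.00183), a call that was lost without the darglitazone libraries (-1.14, adjusted p 0.0566). The mean against which OCI-AML3 was set includes the high EHHADH level of KG-1a, and the OCI-AML3 libraries overlapped with those of MV4-11 and MOLM-14. ACAA1, the peroxisomal thiolase, stood at 35, 35.9 and 46.1 CPM in KG-1a against 8.94 to 20.7 in the other lines (1.47, SE 0.15, adjusted p = 1.42e-06). HSD17B4, the second peroxisomal bifunctional enzyme, and SCP2, a lipid carrier with thiolase activity, were higher by 0.33 (SE 0.11, adjusted p = 0.0232) and 0.40 (SE 0.14, adjusted p = 0.0293), with libraries that overlapped those of other lines. These were the calls that were lost, HSD17B4 with adjusted p = 0.335 and SCP2 with 0.393 without the pioglitazone libraries, of which the KG-1a one had 23.5% ribosomal RNA-derived counts. The exception was ACOX3, an oxidase for branched chains, with 27.7, 42.1 and 31.8 CPM in OCI-AML3, 10.5, 12.4 and 21.1 in KG-1a, 41.9, 46.7 and 49.6 in MOLM-14 and 34.6, 37.6 and 41.9 in MV4-11. Each KG-1a library was below all others, at -1.44 (SE 0.18, adjusted p = 7.18e-06).

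CAT had 217, 138 and 123 CPM in OCI-AML3, 395, 370.3 and 320.1 in KG-1a, 80.5, 94.8 and 98.3 in MOLM-14 and 490.1, 584 and 578 in MV4-11. The order MOLM-14, OCI-AML3, KG-1a, MV4-11 held without overlap between lines, and every line was called, with MOLM-14 at -1.79 (SE 0.17, adjusted p = 1.40e-06) and MV4-11 at 1.67 (SE 0.14, adjusted p = 4.90e-07) at the ends. The OCI-AML3 call was lost without the pioglitazone libraries (adjusted p = 0.0761). Of the transporters, ABCD3, which imports branched acyl-CoAs into peroxisomes, had 46.9, 46.5 and 30.1 CPM in OCI-AML3, 26.7, 32.2 and 22.4 in KG-1a, 31, 28.2 and 25.1 in MOLM-14 and 20.6, 16.8 and 17.8 in MV4-11, and was higher in OCI-AML3 (0.73, SE 0.14, adjusted p = 7.87e-04) and lower in MV4-11 (-0.75, SE 0.15, adjusted p = 0.00104). ABCD4, known for cobalamin transport out of lysosomes, was higher in KG-1a (33, 38 and 27.2 CPM; 0.94, SE 0.17, adjusted p = 2.74e-04).

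Peroxisome biogenesis genes were higher in KG-1a in 3 of 4 cases (background 26.9%) and lower in OCI-AML3 in 4 of 4 (background 19.4%). The first count was the same without the libraries of any 1 treatment, and the second fell to 1 of 4 in each of these cases. These counts are not independent, since the mean against which OCI-AML3 was set includes the higher KG-1a levels of PEX3, PEX5 and PEX14. For PEX5, OCI-AML3 (32.6, 36.9 and 27.7 CPM) overlapped with MOLM-14 (30.3, 32.6 and 31.5), and for PEX3 it overlapped with MV4-11. PEX3, the membrane anchor that receives new membrane proteins, had 11.4, 2.63 and 7.03 CPM in OCI-AML3, 27, 36.2 and 25.5 in KG-1a, 15.7, 11.6 and 11.8 in MOLM-14 and 7.36, 5.56 and 6.41 in MV4-11. KG-1a was above every other line and MV4-11 was low, at 1.78 (SE 0.21, adjusted p = 5.53e-06) and -1.17 (SE 0.24, adjusted p = 0.00139). The OCI-AML3 pioglitazone value rests on 3 counts. PEX14, the docking factor, was at 42.9, 38.6 and 35.2 CPM in KG-1a (1.0, SE 0.16, adjusted p = 8.93e-05), and PEX5, the import receptor for matrix enzymes, at 55.1, 53.5 and 52.8 CPM (0.65, SE 0.12, adjusted p = 4.11e-04). PEX19, the chaperone that hands proteins to PEX3, had 57.9, 46.5 and 60.3 CPM in OCI-AML3, 70.2, 68.1 and 73.9 in KG-1a, 64.4, 62 and 74.4 in MOLM-14 and 61.3, 57.4 and 71.2 in MV4-11, and its OCI-AML3 contrast was -0.27 (SE 0.10, adjusted p = 0.0495). Without the pioglitazone libraries the OCI-AML3 contrasts of PEX3, PEX14 and PEX19 had adjusted p-values of 0.0786, 0.0614 and 0.217. In bulk RNA a lower level in fewer cells and a lower level per cell cannot be told apart.

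Neither drug changed a gene of the set past the threshold. At an adjusted p of 0.05 in edgeR's quasi-likelihood test 0 of 37 were called for pioglitazone, 0 for darglitazone and 0 for the difference between the drugs, and 0% of all genes tested were called in each of these comparisons. DESeq2 and limma-voom called 0 of the 37 as well. At an unadjusted p under 0.05, 3 genes passed for pioglitazone (8.11%, background 5.96%), 5 for darglitazone (13.5%, background 3.4%) and 2 for darglitazone against pioglitazone (5.41%, background 3.51%). These counts turn on single lines. The count for darglitazone was 1 without MOLM-14, 2 without MV4-11, 4 without KG-1a and 7 without OCI-AML3. For pioglitazone it was 2, 1, 2 and 4 in the same order, and between the drugs 1, 3, 0 and 2. With no block for line it was 0 in each of the 3 comparisons. The smallest adjusted p within the set was 0.806 for pioglitazone, and it was 1 for darglitazone and 0.98 between the drugs. The median log2 fold change of the set was -0.04 with pioglitazone (13 positive, 24 negative; -0.02 over all genes tested) and 0.01 with darglitazone (21 positive, 16 negative; 0.01 over all genes tested). Both drugs were compared with the same DMSO libraries. For pioglitazone 34 of 37 genes, and for darglitazone 35 of 37, had a 95% interval that stayed within 1 log2 unit of no change. The wider intervals were those of CROT, ACOT2 and, for pioglitazone, ECI2.

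**Figure D4:**
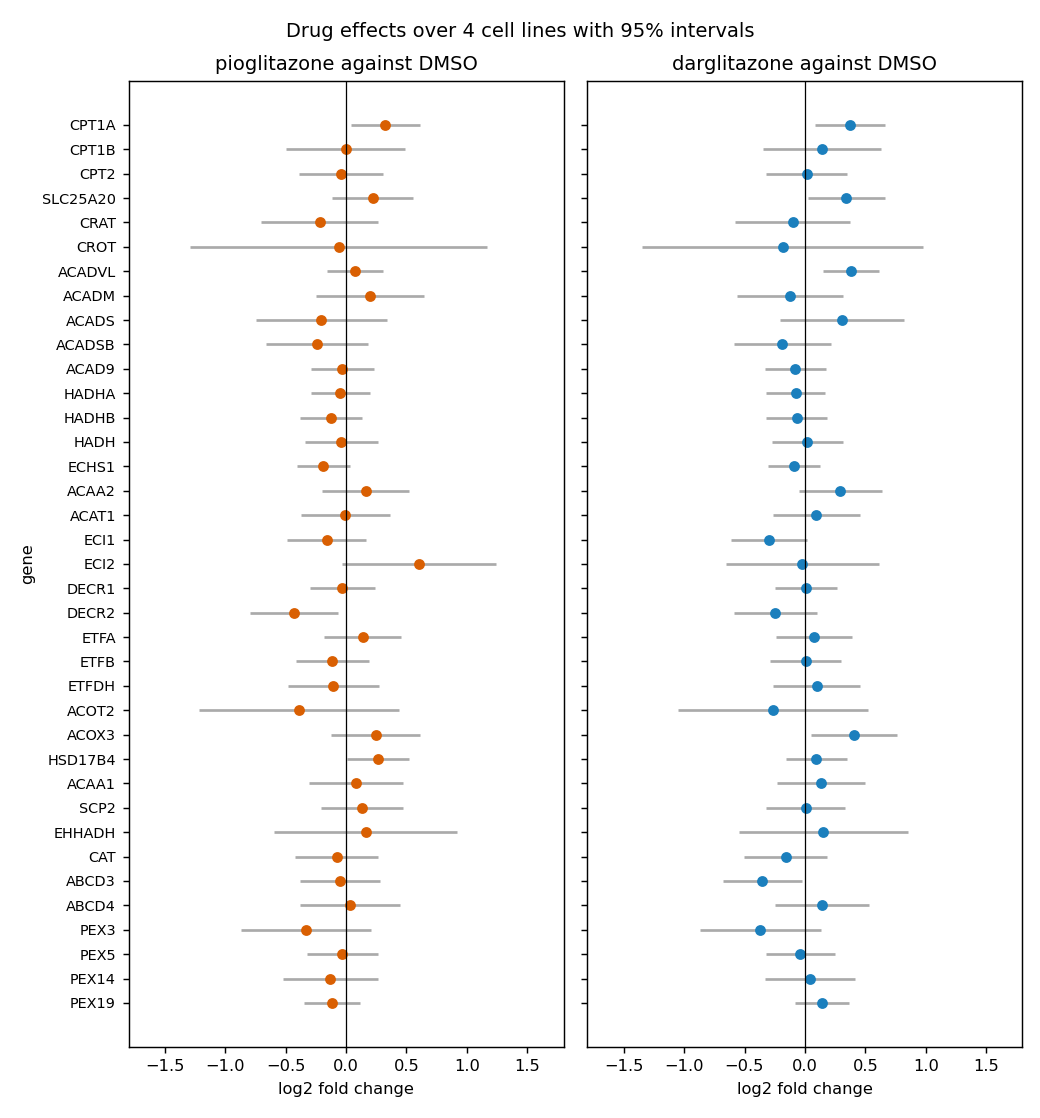
Log2 fold change over the 4 cell lines of each of the 37 genes with pioglitazone (left) and darglitazone (right) against DMSO, with 95% intervals as grey lines. Most points lie within 0.5 of 0, none passed an adjusted p of 0.05, and CROT and ACOT2 have the widest intervals.

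CPT1A had an unadjusted p under 0.05 for both drugs. From the levels given above, each line was higher with pioglitazone than with DMSO, least so in KG-1a, where the difference was 0.05 on the log2 scale, and 3 of 4 lines were higher with darglitazone. The spread between lines was larger than these differences, so the treatment groups overlapped. The fitted log2 fold change was 0.33 with pioglitazone (95% interval 0.04 to 0.61, edgeR adjusted p = 0.822) and 0.37 with darglitazone (0.09 to 0.66, edgeR adjusted p = 1). SLC25A20, the next step inward, had 0.22 (-0.12 to 0.56) and 0.34 (0.02 to 0.66), with darglitazone above DMSO in 4 of 4 lines and pioglitazone in 3 of 4. CPT2 had -0.04 (-0.39 to 0.31) and 0.01 (-0.32 to 0.35), and CPT1B had intervals of -0.49 to 0.49 and -0.34 to 0.63.

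ACADVL had the smallest unadjusted p with darglitazone. All 4 lines were higher than with DMSO. Against pioglitazone, darglitazone was higher by 0.26 in MOLM-14, 0.51 in OCI-AML3 and 0.46 in KG-1a on the log2 scale. In MV4-11 the difference was only 0.0036. Its fitted log2 fold change was 0.38 (0.15 to 0.61, edgeR adjusted p = 1) against DMSO and 0.30 (0.07 to 0.54, edgeR adjusted p = 0.98) against pioglitazone. ACOX3 was above DMSO in 4 of 4 lines with either drug, by 0.24 (-0.12 to 0.61) with pioglitazone and 0.41 (0.05 to 0.76) with darglitazone. ABCD3 was below DMSO in 4 of 4 lines with darglitazone, at -0.35 (-0.67 to -0.03).

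With pioglitazone, DECR2 had the smallest unadjusted p and was below DMSO in 4 of 4 lines, at -0.43 (-0.80 to -0.06, edgeR adjusted p = 0.806). The largest difference was in KG-1a, where DECR2 went from 20.8 to 11.3 CPM in the library with 23.5% ribosomal RNA-derived counts. HSD17B4 had 93.3, 86.9 and 88.9 CPM in OCI-AML3, 80.2, 117 and 86.5 in KG-1a, 53.6, 62.2 and 54.8 in MOLM-14 and 69.1, 88.1 and 86.1 in MV4-11, and its fitted value was 0.26 (0.00 to 0.52), with 3 of 4 lines above DMSO. ECHS1 was below DMSO in 4 of 4 lines at -0.19 (-0.41 to 0.03). ECI2 had 0.60 (-0.04 to 1.24), which rests on KG-1a and on 29 counts in the pioglitazone library of MV4-11 beside 11 with DMSO. Without the pioglitazone libraries of OCI-AML3 and KG-1a, 0 of the 37 genes had an unadjusted p under 0.05 for pioglitazone.

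**Figure D5:**
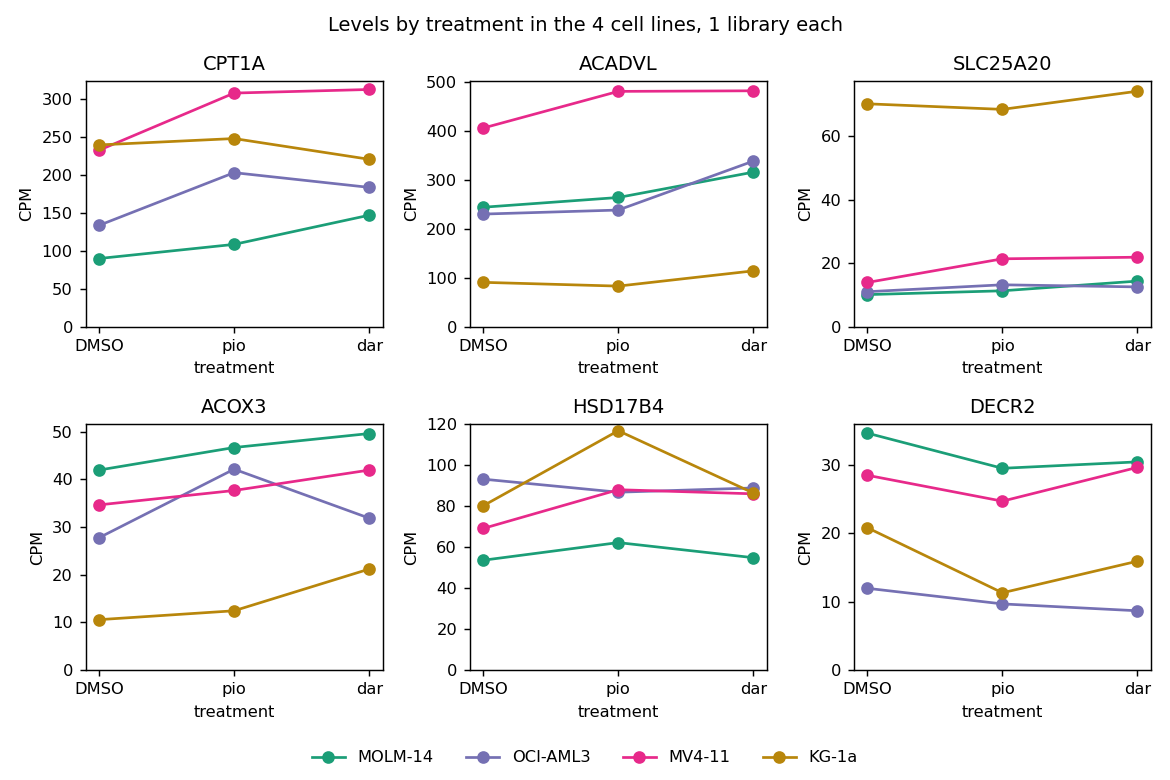
CPM of 6 genes with DMSO, pioglitazone (pio) and darglitazone (dar), 1 point per library and 1 line per cell line. CPT1A with pioglitazone, and ACADVL, SLC25A20 and ACOX3 with darglitazone, are above DMSO in all 4 lines, and for these 4 genes the distance between the highest and the lowest line is larger than the distance between treatments.

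Counted over the set, 2 genes were higher in all 4 lines with pioglitazone (CPT1A and ACOX3; background 5.98%) and 7 were lower in all 4 (ACADS, ACAD9, HADHB, ECHS1, DECR2, ACOT2 and PEX19; background 10.7%). With darglitazone 5 were higher in all 4 lines (SLC25A20, ACADVL, ACADS, ACOX3 and PEX19; background 7.09%) and 4 were lower in all 4 (ECHS1, ECI1, ABCD3 and PEX3; background 7.12%). As shares of the set these are 5.41% and 18.9% for pioglitazone and 13.5% and 10.8% for darglitazone, and ECHS1 and ACOX3 were the members with the same direction in all 4 lines with both drugs, which share their DMSO libraries. For ACADS the direction in KG-1a rests on 3, 1 and 7 counts, the last in the library with low levels of genes typical of MV4-11, and for ACOT2 the direction in OCI-AML3 with pioglitazone rests on the 0 counts of the shallowest library.

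The 2 compounds were compared directly at the same dose and time, as 1 pair. Between darglitazone and pioglitazone the median log2 difference of the set was 0.06, beside 0.03 over all genes tested. PEX19 was higher with darglitazone in 4 of 4 lines, at 0.25 (0.02 to 0.49, edgeR adjusted p = 0.98). ECI2 had -0.62 (-1.26 to 0.01), ACADS 0.51 (-0.04 to 1.06) and ABCD3 -0.30 (-0.64 to 0.03). For 34 of 37 genes the interval of the difference excluded a change of 1 log2 unit, which does not show that the compounds act alike.

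The response to the drugs was also tested for a difference between lines. In edgeR's quasi-likelihood test 0 of 37 genes passed, against 0.00648% of all genes tested. CAT had the smallest p within the set (0.0162, adjusted p = 1), followed by ETFA (0.0537) and ACADSB (0.0752). CAT stood at 217 CPM with DMSO and at 138 and 123 CPM with the drugs in OCI-AML3. In KG-1a it was also below DMSO with both drugs (395, 370 and 320 CPM). CAT had higher values with both drugs in MOLM-14 and MV4-11. DESeq2 called CAT in this comparison (adjusted p = 0.00885), while limma-voom gave it an adjusted p of 0.261.

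Genes of the wider pathway outside the set were tested in the same fit. Of 24 further fatty acid oxidation genes tested (of 27 listed), 19 differed between lines, as did 10 of 12 further PEX genes, 4 of 6 genes of fatty acid activation, 12 of 14 regulators and 3 of 5 PPAR targets outside oxidation (background 72.6% of all genes tested), and edgeR called none of these genes for either drug. At an unadjusted p under 0.05 there were 2, 1, 2, 2 and 0 of them for pioglitazone (background 5.96%) and 0 in each list for darglitazone (background 3.4%). PPARG, the receptor both drugs are known to bind, was too low to test, at 0 to 1.36 CPM, while PPARD had 1.05 to 20.4 and PPARA 3.51 to 25.6 CPM. RXRA, the partner of PPARs, was lower in OCI-AML3, at -2.88 (SE 0.15, edgeR adjusted p = 3.75e-09). PDK4 and FABP4, known PPAR targets, were at 0 in all 12 libraries. Some further line differences, chosen after their values were seen, concern the supply of substrate. SLC22A5, the carnitine importer of the cell membrane, was at 0.994, 0.90 and 0.321 CPM in MOLM-14 and 15.5, 14 and 13.1 CPM in OCI-AML3. ACSL1, which activates long-chain fatty acids, was lower in KG-1a (-2.12, SE 0.13, edgeR adjusted p = 6.50e-09), and ACSL5 was lower in MV4-11 (-2.44, SE 0.15, edgeR adjusted p = 2.82e-08).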

How the data were processed

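RNA of 4 cell lines with 3 treatments was analysed in 12 libraries. The authors deposited estimated counts per transcript, without normalization, which need not be whole (89.8% of the values above 0 were not). The tools named in the submitters' processing notes are STAR, featureCounts, DESeq2, fastp and FastQC, and the build is GRCh38. Their versions, the annotation and the tool that made the estimated counts are not given in the sources used here. GENCODE release 29 matched 202941 of 203027 transcripts, and counts were summed per gene and rounded. A split of reads between overlapping genes or near-identical copies follows that estimate and is uncertain.

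The 37 genes and the other gene lists were chosen with earlier results of these data known. Genes were kept by filterByExpr (minimum count 10, minimum total 15, grouped by line) and tested with edgeR 4.0.16 in R 4.3.3: TMM scaling, a robust quasi-likelihood fit with line and treatment as terms (6 residual degrees of freedom; 3 with the line by drug term), and Benjamini-Hochberg adjustment over 15424 genes at 0.05. Intervals are at the 95% level. Ratios within a line used log2 CPM with a prior count of 2. Pooled counts carry exact Poisson-based intervals, which cover counting error only. The fit was tested on simulated data. Libraries of the same line deviated together from their treatment means (r from 0.596 to 0.851 over 12 pairs; -0.532 to -0.044 between lines), and the labels pair them by line, so line was kept as a block.

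Genes given in every library were the 5 with the smallest p for each drug comparison, up to 3 called genes in each direction for each line with a mean log2 CPM of at least 1, the 3 with the smallest p for line by drug, and preset genes of each step. Further genes are given as ranges or contrasts. Alternatives were DESeq2 1.42.0, limma-voom (limma 3.58.1), other scaling and filters, thinning to the shallowest library, leaving out libraries, and no block for line.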

Additional observations from a re-analysis of the deposited data

Results flagged for a closer look

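In each treatment the 4 lines were screened for a line far from the 3 others, by its gap to the nearest line as a share of the whole range on the log2 CPM scale (Dixon's 95% limit for 4 values). Of 111 such groups of 4, 13 exceeded it, and chance flags about 1 in 20 groups. The same 4 lines recur in the 3 treatments, so these groups are not independent. The share over all genes was not computed, and 72.6% of all genes tested differed between these lines. The count therefore does not set these genes apart from others. CRAT was low in OCI-AML3 with DMSO (0.925), pioglitazone (0.885) and darglitazone (0.886). ACADS was low in KG-1a with DMSO (0.933), pioglitazone (0.911) and darglitazone (0.867). SLC25A20 was high in KG-1a with DMSO (0.835). ACOX3 was low in KG-1a with pioglitazone (0.838), and ACAD9 was low in KG-1a with darglitazone (0.886). ETFB was high in MV4-11 with pioglitazone (0.897). HSD17B4 (0.932) and CROT (0.845) were low in MOLM-14 with darglitazone. ACOT2 was low in OCI-AML3 with pioglitazone (0.889), the library with 0 counts of this gene.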

How the results depend on the processing

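No gene of the set was called for either drug, or between the drugs, under any alternative run, including no replicate block (0 of 37 in each of the 3 comparisons). Over all genes, where the reported count was 0, DESeq2 called 56 for pioglitazone, 6 for darglitazone and 12 between the drugs, edgeR without a low-count filter 223, 76 and 88, edgeR on thinned counts 7, 0 and 1, and edgeR without MOLM-14 5, 0 and 4, none of them in the set. The count of genes that differed in MOLM-14 was 19 and ranged from 10 to 14 when the libraries of 1 treatment were left out, the lowest without the DMSO libraries. The line by drug test called 0 genes of the set, and 1 (CAT) with DESeq2. Besides these, 87 counts of called genes under alternatives, taken over both directions, stayed within 1.5 times the reported count. Some counts by direction moved further. In OCI-AML3, 17 genes were lower as reported and 10 without the pioglitazone libraries, and of the peroxisome biogenesis genes 4 and 1. In MOLM-14, 13 genes were lower as reported and 6 without the DMSO libraries. Of single-gene values, 843 kept their direction and their side of the threshold, 88 lost the call and 0 reversed. Of the 82 calls in line contrasts, 33 were lost without the libraries of at least 1 treatment and 22 under another alternative (mostly without the low-count filter or with thinned counts). Thinning to the shallowest library left 36 of the 37 genes testable. Depth limits OCI-AML3 with pioglitazone, where genes under 2.63 CPM could not be told from 0.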
